A study of Mus musculus with 3 samples.

Results

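A set of 46 genes that act in mitosis and on the mitotic spindle was examined in LPS-stimulated RAW 264.7 macrophages. The genes come from a list of names that was drawn up with earlier results of these data known, so the counts below describe these genes and are not independent evidence of a direction. They fall under 9 roles that run from entry into mitosis to cytokinesis, and all 46 were found among the 24146 genes of the microarray whose names match a RefSeq symbol. RAW 264.7 is an immortalised mouse macrophage line whose cells divide in culture. The 3 groups were macrophages that received LPS alone (LPS), those that received *L. rhamnosus* CRL1505 before LPS (CRL1505 + LPS) and those that received *L. plantarum* CRL1506 before LPS (CRL1506 + LPS). Both strains were used at 50000000 cells/mL for 24 h and were washed off before LPS, the TLR4 agonist from Gram-negative bacteria, which every group received at 50 ng/mL. The design text gives 12 h of LPS and the sample descriptions give 3 h. Cells without LPS were not analysed here, and each ratio below is to LPS alone or between the strains.

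There was 1 array for each group, so the ratios below have no replicate to check them against, and they carry no p-value. A gene was called lower or higher when the ratio of its signals on the compared arrays was at least 2-fold. The same slide carried the arrays of LPS and CRL1506 + LPS and another slide that of CRL1505 + LPS, so strain CRL1505 and slide cannot be told apart. The CRL1505 + LPS array was also the dimmest, with a 75th percentile signal of 517.0 against 743.1 for LPS and 697.9 for CRL1506 + LPS, and 48.5% of its gene spots were well above background against 54.5% and 55.3%. Each signal is given below as log2 relative to that percentile of its own array. The 46 genes had 92 probes, the brightest probe of every gene was well above background on all 3 arrays, and none of these spots was saturated or marked as an outlier. Each gene is represented by its brightest probe. The error model of the scanner software gave these log2 ratios an SD of 0.20, which covers the reading of the spots and not the variation between cultures. All 12 macrophage markers examined, *Adgre1*, *Cd14*, *Itgam* and *Csf1r* among them, were well above background on every array. Of 9 markers of other cell types, *Cd3e* and *Pecam1* were well above background on every array, while *Krt18*, *Hba-a1* and *Mcpt4* were among those that were so on none. *Epcam* was so with LPS and CRL1506 + LPS, *Ncr1* with LPS only and *Col1a1* with CRL1506 + LPS only.

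A cell enters mitosis when CDK1 is activated by cyclins A and B, and the Polo and Aurora kinases reinforce this switch. Condensed chromosomes are then caught at their kinetochores by spindle microtubules, while the spindle assembly checkpoint restrains the anaphase-promoting complex (APC/C), the ubiquitin ligase whose activity ends with the destruction of securin and cyclin B and the separation of the chromatids. The central spindle and a contractile ring finally split the cell. Most genes of this machinery are transcribed in G2 and M phase, and they are known for promoters with CCAAT boxes, bound by NF-Y, and a cell cycle homology region (CHR), bound by the MuvB core. MuvB joins B-Myb and FOXM1 in dividing cells and forms the repressive DREAM complex with E2F4 in resting cells. Macrophages exposed to LPS are known to slow their division.

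Since the members are known for shared promoter elements, their promoters were read from RefSeq (GRCm38.p6, 250 bases before to 50 bases after the start of the gene). An entry was found for 37 of the 46 members and not for *Ccna2*, *Cdc25c*, *Aurkb*, *Incenp*, *Kif20a*, *Tpx2*, *Spc24*, *Smc4* and *Foxm1*. The promoters of 5 members are shown, namely *Cdk1* (chr10:69352863-69353162, minus strand), *Plk1* (chr7:122159185-122159484, plus strand) and *Cdc20* (chr4:118437294-118437593, minus strand) as genes of entry, progress and exit, and *Kif23* (chr9:61946750-61947049, minus strand) and *Pttg1* (chr11:43425932-43426231, minus strand) as the members with the lowest and the highest ratio of CRL1505 + LPS to LPS. Each is written 5′ to 3′ on the strand of the gene, and capitals mark the letters searched for as the core of a CHR (TTTGAA or TTCGAA) and as a CCAAT box, on either strand.
Cdk1: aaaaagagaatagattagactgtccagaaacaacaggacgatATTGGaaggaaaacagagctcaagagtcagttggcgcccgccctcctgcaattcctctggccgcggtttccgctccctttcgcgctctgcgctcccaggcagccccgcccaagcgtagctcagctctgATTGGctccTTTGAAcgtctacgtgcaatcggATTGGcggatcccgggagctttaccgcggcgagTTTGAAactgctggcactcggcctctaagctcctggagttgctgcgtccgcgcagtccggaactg
Plk1: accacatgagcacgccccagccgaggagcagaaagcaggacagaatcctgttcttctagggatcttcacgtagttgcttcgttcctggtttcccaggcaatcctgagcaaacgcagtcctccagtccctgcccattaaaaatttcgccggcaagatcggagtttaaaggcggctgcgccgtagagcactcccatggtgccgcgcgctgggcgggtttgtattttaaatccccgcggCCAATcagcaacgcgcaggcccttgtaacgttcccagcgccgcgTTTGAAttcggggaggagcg
Cdc20: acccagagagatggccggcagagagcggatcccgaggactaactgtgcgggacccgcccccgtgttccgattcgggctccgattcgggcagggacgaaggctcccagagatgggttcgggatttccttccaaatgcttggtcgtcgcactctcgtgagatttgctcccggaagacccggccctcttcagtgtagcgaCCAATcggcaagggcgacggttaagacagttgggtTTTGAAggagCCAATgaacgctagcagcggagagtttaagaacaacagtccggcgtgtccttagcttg
Kif23: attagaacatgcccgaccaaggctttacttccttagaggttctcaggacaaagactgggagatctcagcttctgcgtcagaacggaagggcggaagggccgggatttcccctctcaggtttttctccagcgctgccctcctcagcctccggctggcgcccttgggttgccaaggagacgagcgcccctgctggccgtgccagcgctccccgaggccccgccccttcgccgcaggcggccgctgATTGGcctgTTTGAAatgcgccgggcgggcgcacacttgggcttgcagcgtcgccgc
Pttg1: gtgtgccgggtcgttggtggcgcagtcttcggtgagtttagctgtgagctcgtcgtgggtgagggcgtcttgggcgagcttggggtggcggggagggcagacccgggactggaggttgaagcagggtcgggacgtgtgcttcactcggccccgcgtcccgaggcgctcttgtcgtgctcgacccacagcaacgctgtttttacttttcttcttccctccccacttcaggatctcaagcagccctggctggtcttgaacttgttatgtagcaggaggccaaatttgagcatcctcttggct

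In *Cdk1*, *Cdc20* and *Kif23*, CCAAT letters stand a few bases from CHR letters. The *Plk1* window holds a CCAAT box before and CHR letters after the start, and that of *Pttg1* holds neither. CHR letters were found in 29 of the 37 members (78.4%), against 21.7% of all 27025 genes with an entry, and CCAAT letters in 27 members (73.0%), against 41.1% of all genes. Both stood together in 25 members (67.6%), against 8.61% of all genes. Letters of E2F sites (TTTGGCG, the variant TTTCGCG and the variant TTTCCCG, on either strand, not capitalised above) were found in 5 members, *Cdk1*, *Birc5*, *Cdca8*, *Ncapg* and *Nusap1*, that is 13.5% against 6.38% of all genes. These are matches of letters in a window and not measured binding.

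Mitosis and spindle genes had lower signals in macrophages given CRL1505 + LPS than in those given LPS. Of the 46 members, 23 (50.0%) were at least 2-fold lower and 0 were at least 2-fold higher, whereas of all 14497 genes compared 8.24% were lower and 9.66% higher. The log2 ratio was below 0 for 45 members, against 49.3% of all genes. The median of the members was -0.99 (quartiles -1.33 and -0.67), a fold of 1.99. Over all genes well above background on both arrays the median was 0.05. The lowest member was *Kif23* at -2.34 and the highest *Pttg1* at 0.25. From bulk RNA, fewer cells in mitosis and less of these transcripts per cell cannot be told apart.

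With CRL1506 + LPS the same set had a median below LPS too. How much nearer to 0 it lay than with CRL1505 + LPS depended on the scaling, since with the arrays shifted by their medians the members had medians of -0.70 with CRL1505 + LPS and -0.67 with CRL1506 + LPS. The gene *Anln* alone was at least 2-fold lower than LPS and 0 were higher, which is 2.17% of the members beside 3.44% lower and 4.72% higher among all 15087 genes compared. The share of members called was thus no larger than among all genes, while 45 members lay below 0, against 58.3% of all genes. Their median was -0.47 (quartiles -0.64 and -0.27), a fold of 1.38, against a median of -0.07 over all genes. The members lay between -1.01 for *Anln* and 0.02 for *Ndc80*, the outer kinetochore protein that holds microtubules. Both comparisons use the same LPS array, so an error of that array enters both.

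**Figure D1:**
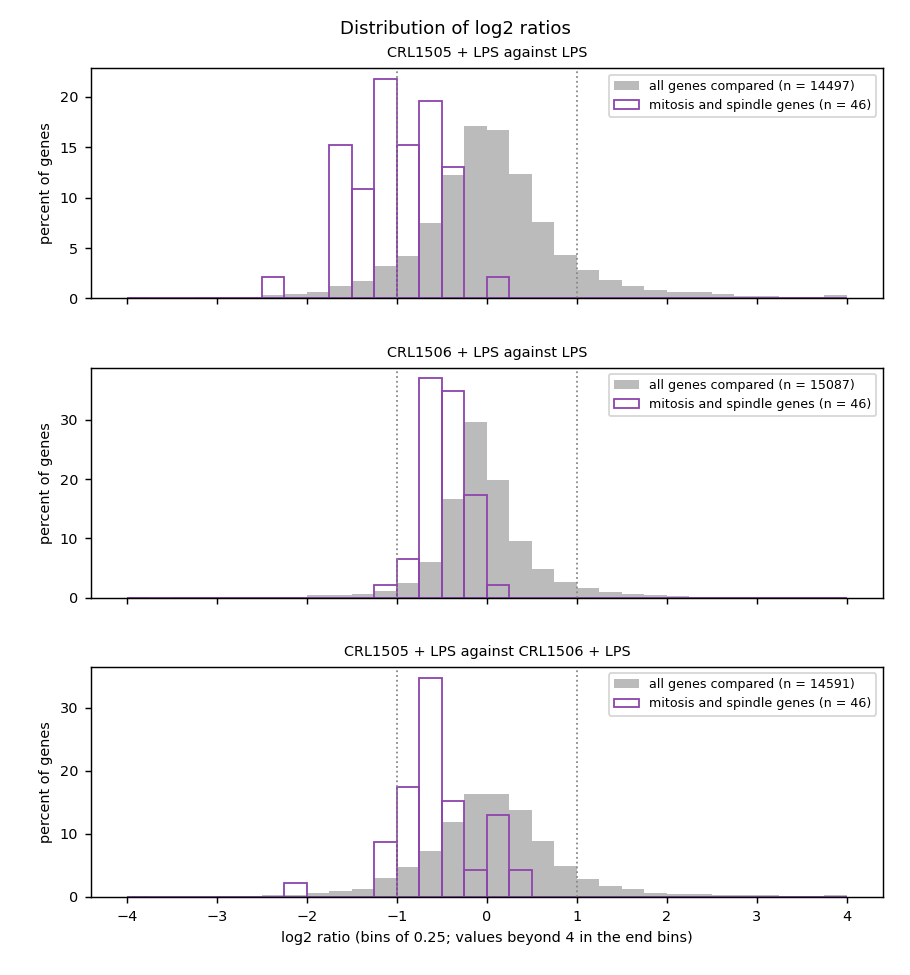
Percent of genes (y axis) in bins of the log2 ratio (x axis) for each comparison, with all genes in grey and the 46 mitosis and spindle genes outlined in purple, and dotted lines at 2-fold. The members centre on -0.99 for CRL1505 + LPS against LPS and on -0.47 for CRL1506 + LPS against LPS, while all genes centre near 0.

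Over all genes, 8.24% were at least 2-fold lower with CRL1505 + LPS and 3.44% with CRL1506 + LPS. The counts by role below stand beside these shares, and 0 or 1 gene of a role cannot be told from them. The genes of cyclins, CDK1 and entry into mitosis were lower with CRL1505 + LPS in 5 of 6 cases, with a median log2 ratio to LPS of -1.09. With CRL1506 + LPS 0 of 6 were lower, with a median of -0.58. *Cdk1*, the kinase that starts mitosis, had a log2 signal of 1.72 with LPS, 0.61 with CRL1505 + LPS and 0.96 with CRL1506 + LPS, which puts it 2.16-fold and 1.70-fold below LPS. Where a gene has a pair of folds with no array named, the first is for CRL1505 + LPS and the second for CRL1506 + LPS. *Ccna2*, cyclin A2, which pairs with CDK1 before prophase, had 4.21 with LPS, 2.79 with CRL1505 + LPS and 3.51 with CRL1506 + LPS, or 2.69-fold and 1.63-fold lower. *Ccnb1*, cyclin B1, had 3.47 with LPS, 2.45 with CRL1505 + LPS and 3.01 with CRL1506 + LPS, or 2.03-fold and 1.38-fold lower. For the other B-type cyclin of the set the order of the strains was reversed. *Ccnb2* was 1.39-fold lower with CRL1505 + LPS and 1.66-fold lower with CRL1506 + LPS. *Cdc25c*, the phosphatase that removes inhibitory phosphates from CDK1, had 1.23 with LPS, 0.17 with CRL1505 + LPS and 1.0 with CRL1506 + LPS. *Foxm1*, the transcription factor of many genes of the set, had 2.30 with LPS, 0.94 with CRL1505 + LPS and 2.02 with CRL1506 + LPS, or 2.55-fold and 1.21-fold lower. In both of these genes the CRL1506 + LPS value lay close to LPS and the CRL1505 + LPS value stood apart. A dimmer probe of *Foxm1* read further from LPS with either strain, at -1.74 with CRL1505 + LPS and -0.56 with CRL1506 + LPS.

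Both genes of the Polo and Aurora A kinases were at least 2-fold lower with CRL1505 + LPS, and neither with CRL1506 + LPS. *Plk1*, the Polo kinase of centrosome maturation and mitotic entry, had a log2 signal of 4.26 with LPS, 2.62 with CRL1505 + LPS and 3.60 with CRL1506 + LPS, or 3.12-fold and 1.59-fold lower. *Aurka*, Aurora A, which acts at the spindle poles, had 5.16 with LPS, 3.75 with CRL1505 + LPS and 4.60 with CRL1506 + LPS, or 2.66-fold and 1.47-fold lower. In both genes the CRL1506 + LPS array lay between the other two.

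The spindle assembly checkpoint had 1 of 5 genes at least 2-fold lower with CRL1505 + LPS, beside 8.24% of all genes. Its median was -0.64 with CRL1505 + LPS and -0.41 with CRL1506 + LPS. That gene was *Bub1b*, which encodes the checkpoint inhibitor BUBR1, with a log2 signal of 0.73 with LPS, -0.77 with CRL1505 + LPS and 0.18 with CRL1506 + LPS. It was 2.84-fold and 1.46-fold lower than LPS. *Bub1*, the checkpoint kinase at the kinetochore, had 2.36 with LPS, 1.56 with CRL1505 + LPS and 2.09 with CRL1506 + LPS, or 1.73-fold and 1.20-fold lower. *Ttk*, which encodes the kinase MPS1, was 1.55-fold and 1.19-fold lower. The remaining 2 genes of this role were a little lower with CRL1506 + LPS than with CRL1505 + LPS. *Mad2l1*, which encodes the MAD2 protein that binds CDC20, was 1.41-fold lower with CRL1505 + LPS and 1.63-fold lower with CRL1506 + LPS. *Bub3*, which anchors the BUB kinases, was 1.20-fold and 1.32-fold lower.

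Genes of anaphase split in the CRL1505 + LPS comparison, with 1 of 4 at least 2-fold lower, beside 8.24% of all genes. The median of the 4 was -0.45 there, against -0.55 with CRL1506 + LPS. *Espl1*, separase, the protease that opens cohesin rings, had a log2 signal of 2.73 with LPS, 1.05 with CRL1505 + LPS and 2.12 with CRL1506 + LPS, or 3.20-fold and 1.53-fold lower. *Pttg1*, securin, the inhibitor of separase, had 5.57 with LPS, 5.82 with CRL1505 + LPS and 5.45 with CRL1506 + LPS, and it was the only member above 0 with CRL1505 + LPS, 1.19-fold higher than LPS. Its second probe read -0.36 in that comparison, so the sign of *Pttg1* depended on the probe. *Cdc20*, the APC/C activator of anaphase, had 4.51 with LPS, 4.02 with CRL1505 + LPS and 4.01 with CRL1506 + LPS, which is 1.41-fold lower with either strain. *Ube2c*, the APC/C ubiquitin-conjugating enzyme, was 1.32-fold lower with CRL1505 + LPS and 1.57-fold lower with CRL1506 + LPS.

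The chromosomal passenger complex corrects faulty attachments and later moves to the central spindle. Its genes were at least 2-fold lower with CRL1505 + LPS in 3 of 4 cases, with a median of -1.20, and in 0 of 4 with CRL1506 + LPS, with a median of -0.34. *Aurkb*, Aurora B, the kinase of the complex, had a log2 signal of 1.24 with LPS, 0.01 with CRL1505 + LPS and 0.53 with CRL1506 + LPS, or 2.35-fold and 1.64-fold lower. *Incenp*, its scaffold, had 5.60 with LPS, 4.36 with CRL1505 + LPS and 5.40 with CRL1506 + LPS, or 2.36-fold and 1.15-fold lower. *Birc5*, survivin, had 5.54 with LPS, 4.38 with CRL1505 + LPS and 5.10 with CRL1506 + LPS, or 2.23-fold and 1.36-fold lower. *Cdca8*, borealin, stayed short of the threshold at 1.89-fold lower with CRL1505 + LPS and was 1.18-fold lower with CRL1506 + LPS. With CRL1505 + LPS the 4 subunits lay within -1.24 to -0.92.

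Of the centromere and kinetochore genes, 1 of 7 was at least 2-fold lower with CRL1505 + LPS, beside 8.24% of all genes. The median of the 7 was -0.69 with CRL1505 + LPS and -0.33 with CRL1506 + LPS. The gene was *Nuf2*, a subunit of the NDC80 complex, with a log2 signal of 2.67 with LPS, 1.24 with CRL1505 + LPS and 2.0 with CRL1506 + LPS, or 2.69-fold and 1.59-fold lower. *Ndc80*, its partner, had 0.82 with LPS, 0.18 with CRL1505 + LPS and 0.84 with CRL1506 + LPS. *Ndc80* was thus 1.56-fold lower with CRL1505 + LPS and level with LPS on the CRL1506 + LPS array. The other subunits of that complex, *Spc24* and *Spc25*, were 1.34-fold and 1.87-fold lower with CRL1505 + LPS. The ratios of the 4 NDC80 complex genes to LPS therefore ranged from -1.43 to -0.42, although their proteins work as a single complex. *Cenpe*, a kinetochore motor, was 1.61-fold lower, and *Cenpf*, a large outer kinetochore protein, 1.72-fold lower with CRL1505 + LPS. *Cenpa*, the histone variant of centromeres, was 1.46-fold lower with CRL1505 + LPS and 1.70-fold lower with CRL1506 + LPS.

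Of the spindle motors and microtubule proteins, 2 of 5 were at least 2-fold lower with CRL1505 + LPS, and the medians were -0.83 and -0.52 with CRL1505 + LPS and CRL1506 + LPS. *Kif2c*, a kinesin that takes microtubules apart at centromeres, had a log2 signal of -0.38 with LPS, -2.09 with CRL1505 + LPS and -0.89 with CRL1506 + LPS, or 3.28-fold and 1.42-fold lower. *Kif4*, a chromosome-bound kinesin, had 0.38 with LPS, -1.12 with CRL1505 + LPS and -0.20 with CRL1506 + LPS, or 2.83-fold and 1.49-fold lower. *Kif11*, which encodes the motor EG5 that pushes the spindle poles apart, had -0.10 with LPS, -0.78 with CRL1505 + LPS and -0.34 with CRL1506 + LPS, and it was 1.60-fold and 1.18-fold lower. *Tpx2*, the activator of Aurora A on microtubules, was 1.78-fold and 1.43-fold lower. *Nusap1*, a microtubule-bundling protein, was 1.61-fold lower with CRL1505 + LPS and 1.81-fold lower with CRL1506 + LPS.

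The genes of the central spindle and cytokinesis were lower with CRL1505 + LPS in 6 of 7 cases, with a median of -1.21, and in 1 of 7 with CRL1506 + LPS, with a median of -0.48. *Kif23*, the kinesin of the centralspindlin complex, had a log2 signal of 0.90 with LPS, -1.43 with CRL1505 + LPS and 0.62 with CRL1506 + LPS, or 5.05-fold and 1.21-fold lower, so that the CRL1505 + LPS array stood far from the other two. The size of its ratio varied with the probe, since the other measured probes of *Kif23* read -1.85 and -0.33 in that comparison. *Racgap1*, the other subunit of centralspindlin, had 4.05 with LPS, 3.01 with CRL1505 + LPS and 3.57 with CRL1506 + LPS, or 2.06-fold and 1.39-fold lower. *Anln*, anillin, which organises the contractile ring, had 3.71 with LPS, 2.16 with CRL1505 + LPS and 2.70 with CRL1506 + LPS, and it was the 1 member at least 2-fold lower with CRL1506 + LPS, by 2.02-fold, as well as 2.92-fold lower with CRL1505 + LPS. The second probe of *Anln* read -0.26 with CRL1506 + LPS, and its 2-fold call with that strain was made in 2 of 7 other scalings of the arrays. *Prc1*, which bundles antiparallel microtubules at the midzone, had 3.96 with LPS, 2.45 with CRL1505 + LPS and 3.30 with CRL1506 + LPS, or 2.85-fold and 1.59-fold lower. *Kif20a*, a midzone kinesin, had 1.73 with LPS, 0.53 with CRL1505 + LPS and 1.13 with CRL1506 + LPS, or 2.31-fold and 1.52-fold lower. Its relative *Kif20b* had 1.25 with LPS, 0.23 with CRL1505 + LPS and 0.91 with CRL1506 + LPS, or 2.03-fold and 1.27-fold lower. *Ect2*, the exchange factor that activates RhoA at the equator, was 1.86-fold lower with CRL1505 + LPS and 1.23-fold lower with CRL1506 + LPS.

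Genes of mitotic chromosomes were at least 2-fold lower with CRL1505 + LPS in 2 of 6 cases, and the median was -0.85 with CRL1505 + LPS and -0.44 with CRL1506 + LPS. *Mki67*, the proliferation marker Ki-67 that coats mitotic chromosomes, had a log2 signal of 5.49 with LPS, 4.29 with CRL1505 + LPS and 5.23 with CRL1506 + LPS, or 2.29-fold and 1.19-fold lower. *Ncaph*, a condensin I subunit, had 3.02 with LPS, 1.75 with CRL1505 + LPS and 2.41 with CRL1506 + LPS, or 2.41-fold and 1.53-fold lower. *Top2a*, the topoisomerase that untangles sister chromatids, had 4.36 with LPS, 3.39 with CRL1505 + LPS and 3.92 with CRL1506 + LPS, and at 1.96-fold lower with CRL1505 + LPS it stopped just short of the threshold. *Ncapg*, another condensin I subunit, was 1.66-fold and 1.37-fold lower. The condensin core genes *Smc2* and *Smc4* were 1.59-fold and 1.49-fold lower with CRL1505 + LPS. The size for *Smc4* varied with the probe, since its 3 probes read -0.57, -0.47 and -0.02 in that comparison. Against CRL1506 + LPS the last of these read 0.30.

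**Figure D2:**
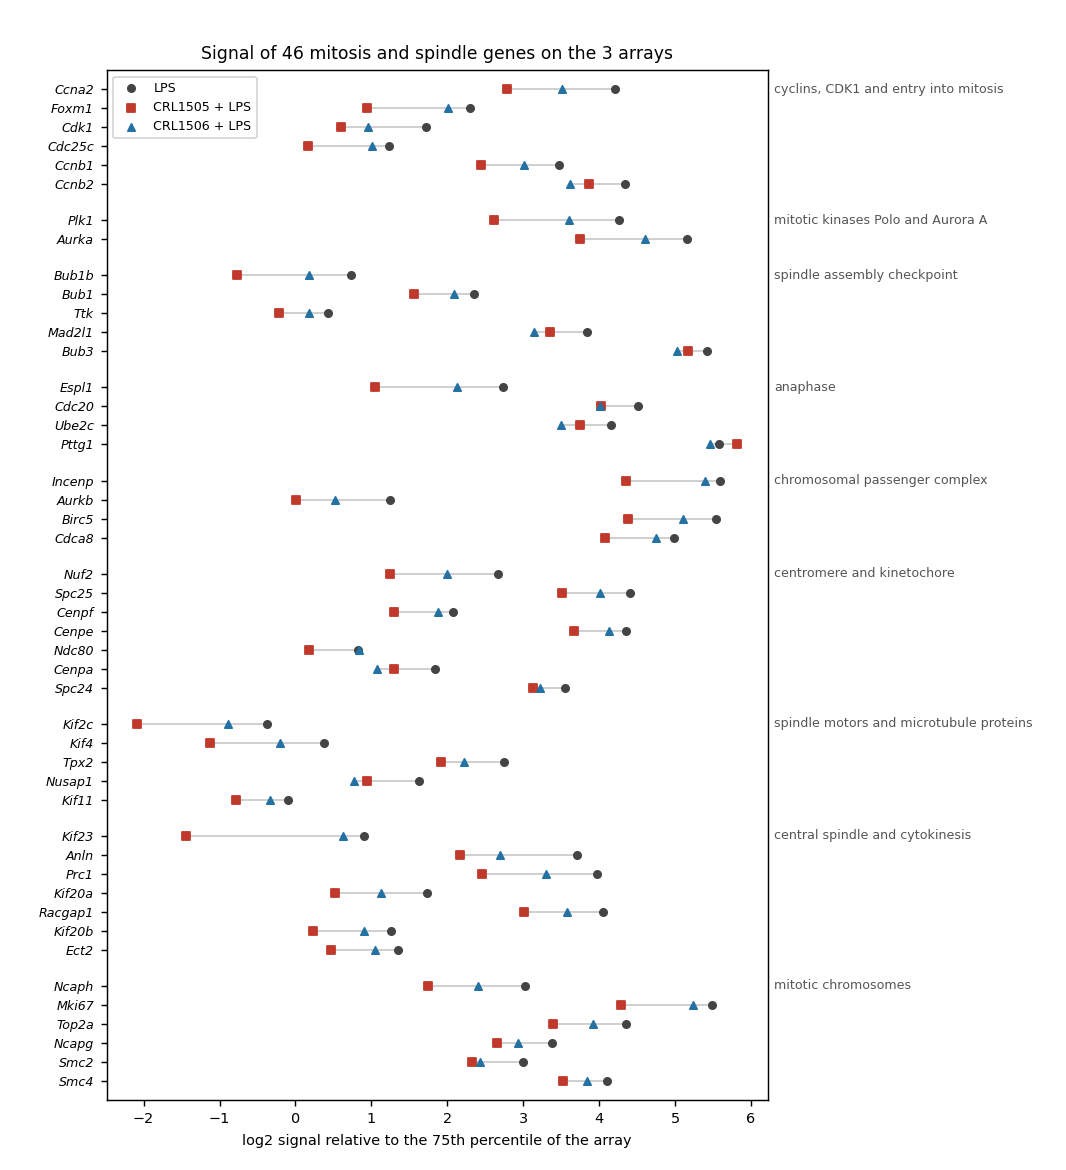
Log2 signal relative to the 75th percentile of the array (x axis) of the 46 genes by role (y axis) on the LPS (black circle), CRL1505 + LPS (red square) and CRL1506 + LPS (blue triangle) arrays, 1 array each. The red square lies left of the black circle in every gene but *Pttg1*, and the blue triangle lies left of it in every gene but *Ndc80*.

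Several calls rest near the threshold. *Kif20b*, *Ccnb1*, *Racgap1*, *Cdc25c*, *Cdk1*, *Birc5* and *Mki67* passed with log2 ratios between -1.02 and -1.19, and *Top2a*, *Cdca8*, *Spc25*, *Ect2* and *Tpx2* missed it with ratios between -0.97 and -0.83, all of them nearer to 2-fold than the SD of 0.20 given by the error model. The calls of *Anln*, *Aurka*, *Bub1b*, *Ccna2*, *Espl1*, *Foxm1*, *Kif23*, *Kif2c*, *Kif4*, *Nuf2*, *Plk1* and *Prc1*, 12 in all, were made with CRL1505 + LPS in each of 7 other scalings of the arrays. The sign against LPS varied over those scalings for *Bub3* and *Pttg1* with CRL1505 + LPS and for *Ndc80* and *Pttg1* with CRL1506 + LPS. In each of these comparisons the other 44 members were below 0 throughout.

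With a threshold of 1.5-fold, 37 members were lower with CRL1505 + LPS (beside 17.1% of all genes), 15 with CRL1506 + LPS (9.05%), and 21 in CRL1505 + LPS against CRL1506 + LPS (16.1%). With a threshold of 4-fold, *Kif23* was the 1 member lower with CRL1505 + LPS (1.4% of all genes), 0 were lower with CRL1506 + LPS (0.802%), and *Kif23* was again the 1 lower in the comparison of the strains (0.932%).

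**Figure D3:**
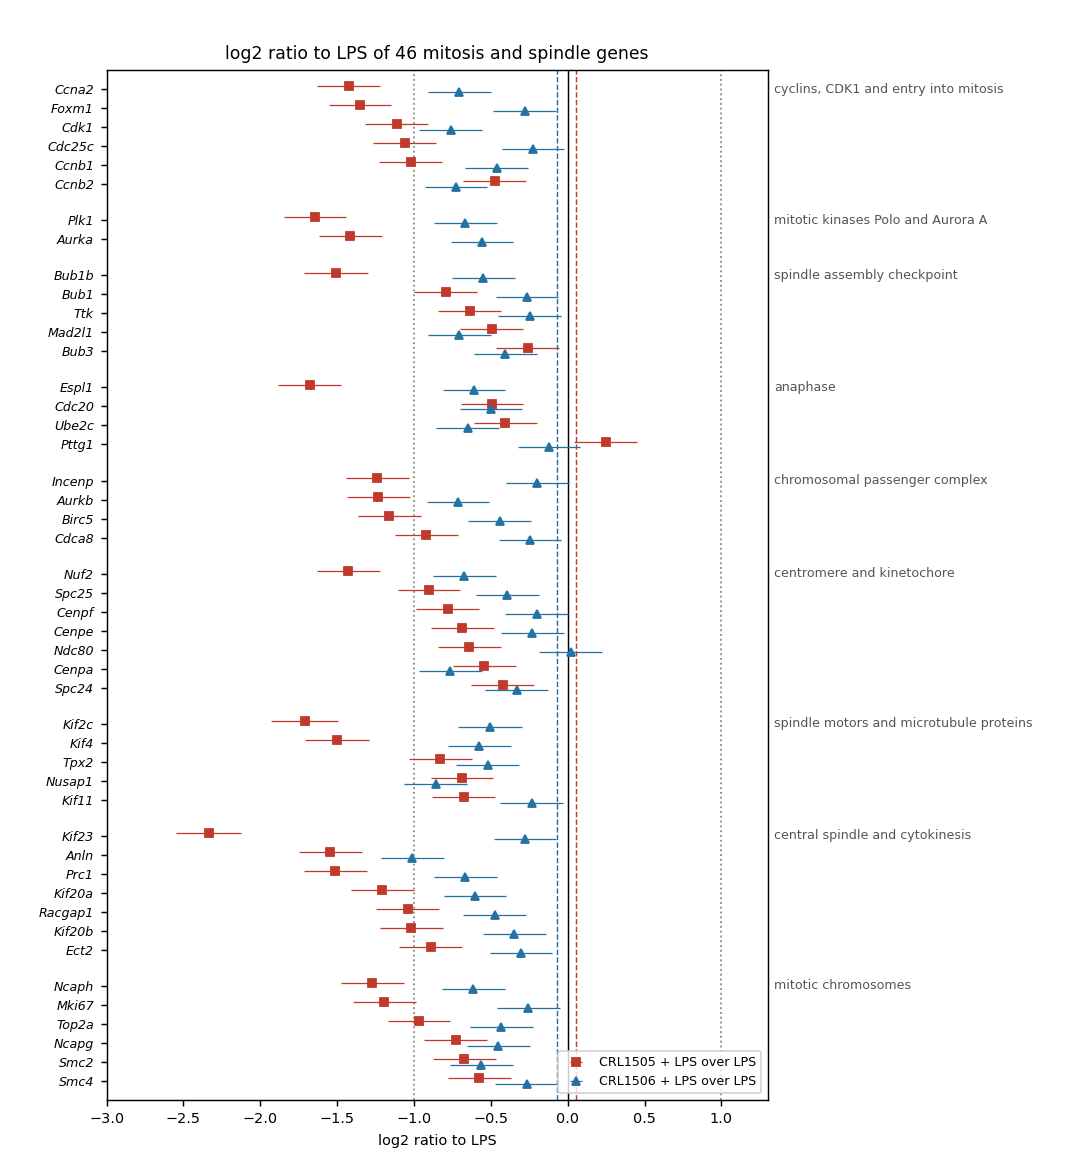
Log2 ratio to LPS (x axis) of each of the 46 genes by role (y axis) for CRL1505 + LPS (red squares) and CRL1506 + LPS (blue triangles). Bars are 1 SD of the scanner software's error model, dotted lines mark 2-fold, and dashed lines mark the median of all genes. Of the red squares 23 lie beyond the lower 2-fold line, and of the blue triangles only *Anln* does.

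Set directly against each other, the strains gave values for these genes that depended on the scaling of the arrays. With CRL1505 + LPS, 5 of 46 members were at least 2-fold lower than with CRL1506 + LPS and 0 were higher, against 6.67% lower and 8.81% higher among all 14591 genes compared. The 5 genes were *Kif23* (log2 ratio -2.06), *Kif2c* (-1.21), *Espl1* (-1.07), *Foxm1* (-1.07) and *Incenp* (-1.04). The 38 members below 0 stand beside 47.1% of all genes. The median of the members was -0.56 against 0.10 over all genes. With the arrays shifted by their medians it was -0.066, against 0.59 over all genes, with 1 member at least 2-fold lower (beside 2.56% of all genes). With the arrays set by spike-in probes it was -0.94, against -0.28 over all genes, with 19 lower (14.6%). The 8 members above 0 were *Pttg1*, *Ccnb2*, *Ube2c*, *Cenpa*, *Mad2l1*, *Nusap1*, *Bub3* and *Cdc20*, and their ratios lay between 0.01 and 0.37. Anaphase was the role with 3 of 4 members above 0 and a median of 0.13, while every member of the Polo and Aurora A kinases, the passenger complex, cytokinesis and mitotic chromosomes was below 0. For 17 members the sign of this ratio varied over the 7 other scalings, those 8 genes included, and *Kif23* was the 1 member at least 2-fold lower in all of them. The scalings use the brightest probe of a gene. The other measured probes of *Kif23* read -1.21 and -0.12 between the strains. The slide also separates these arrays.

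The scaling of the arrays set how far the members lay below LPS. The scalings by spike-in probes, by medians and by a percentile move all genes of an array by 1 constant, so the distance between the members and all genes is the same in them by construction, and only the other ways of processing could change it. With the arrays set by their spike-in probes, the median of all genes was -0.45 with CRL1505 + LPS and that of the members -1.5. With the arrays shifted by their medians, these were 0.35 and -0.70. The distance between the medians of the members and of all genes lay between -1.11 and -0.99 over all ways of processing with CRL1505 + LPS, between -0.53 and -0.32 with CRL1506 + LPS, and between -0.77 and -0.65 for the strains set against each other.

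**Figure D4:**
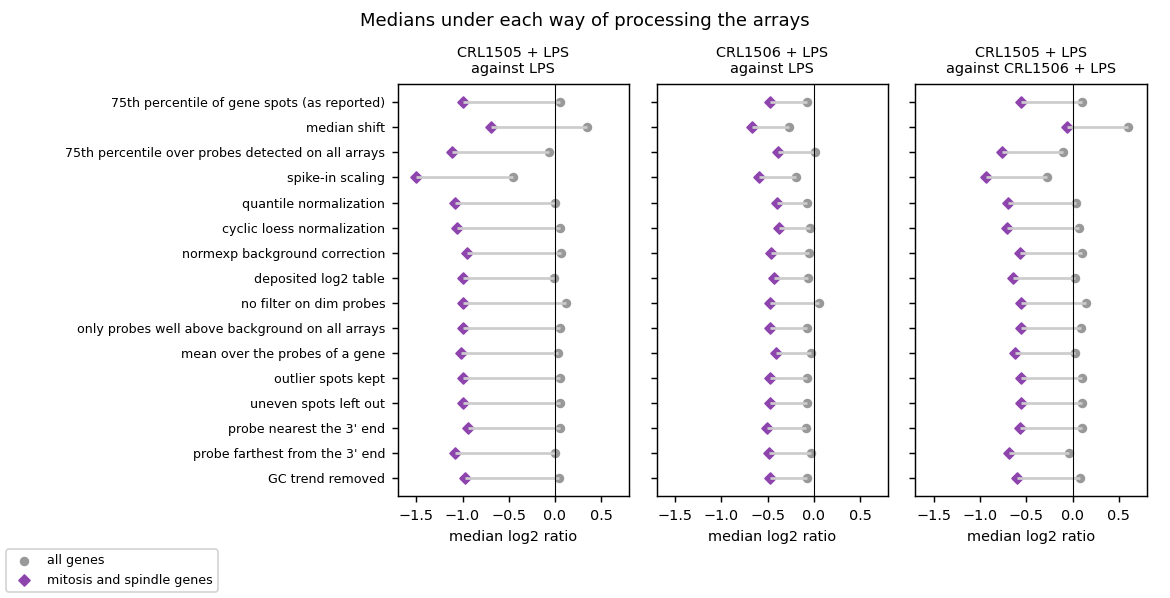
Median log2 ratio (x axis) of all genes (grey circles) and of the 46 mitosis and spindle genes (purple diamonds) under each way of processing the arrays (y axis), in 3 comparisons. The diamonds lie left of the circles in every line, and both shift together with the scaling.

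The other probes of the members mostly read the same way. Of 79 member probes measured on both arrays, 78 were below 0 with CRL1505 + LPS, and of 83 probes 72 were so with CRL1506 + LPS. These counts leave out probes well above background on a single array of the pair. Dim probes of *Cdca8*, *Ect2*, *Prc1* and *Ttk* were so with CRL1506 + LPS and not with LPS. A dim probe of *Kif4* was so with CRL1505 + LPS and not with LPS. Probes of *Anln*, *Kif2c*, *Ncapg* and *Prc1* were so with LPS and not with CRL1505 + LPS. Among the measured probes, the exceptions with CRL1506 + LPS were the single measured probe of *Ndc80* and probes of *Ccnb1*, *Cenpf*, *Ect2*, *Kif20b*, *Ncapg*, *Prc1*, *Smc2*, *Smc4* and *Top2a* that lay upstream of the 3′-most probe of their gene. In the 26 members with at least 2 such probes, the probe farthest from the 3′ end read higher than the nearest in 16 and lower in 10, with a median difference of 0.14, and over 5924 genes the same difference was 0.13. With CRL1505 + LPS the difference was -0.18 over 23 members and -0.12 over 5325 genes. The ratio thus differed with the position of the probe, in opposite directions in the 2 comparisons, in the members about as in all genes. With the nearest probe used for every gene, 22 members were at least 2-fold lower with CRL1505 + LPS (beside 6.47% of all genes) and their median was -0.94. With the farthest probe 24 were (7.12%) and the median was -1.09. With CRL1506 + LPS the medians were -0.50 and -0.49. The brightest probe of a member was mostly the one nearest the 3′ end, in 19 of 23 and in 22 of 26 members.

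*Top2a* shows this along a single gene. The first 30 of the 60 bases of its 4 probes are given with their mm9 positions in the deposited files, all on the minus strand, from the 3′ end of the gene upstream: probe 1 at chr11:98854651-98854710, probe 2 at chr11:98855522-98855581, probe 3 at chr11:98877908-98877967 and probe 4 at chr11:98883581-98883640. Whether a probe lies in an exon is not given in the files.
Top2a probe 1: ggtcatatagaactggttagttctagtaca
Top2a probe 2: ttcttctgatagctctgactctgattttga
Top2a probe 3: ctgtaagagagatttgtggaattaggctgg
Top2a probe 4: ttgatataaagatctactggttaagtccta

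In the same order, the log2 ratios of CRL1505 + LPS to LPS were -0.97, -1.12, -1.11 and -0.80, so all 4 *Top2a* probes read lower. The ratios of CRL1506 + LPS to LPS were -0.43, -0.65, 0.78 and 1.12, so the upstream pair read higher than LPS. Probe 4 had a log2 signal of -2.98 with LPS, -3.78 with CRL1505 + LPS and -1.86 with CRL1506 + LPS. The probes of *Ncapg* and *Prc1* farthest upstream that were measured read 1.85 and 0.98 with CRL1506 + LPS, where their brightest probes read -0.45 and -0.67. These upstream probes were dim, with log2 signals of -3.91 and -3.69 with LPS, where the lowest probe well above background had -4.48. Neither was well above background with CRL1505 + LPS.

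**Figure D5:**
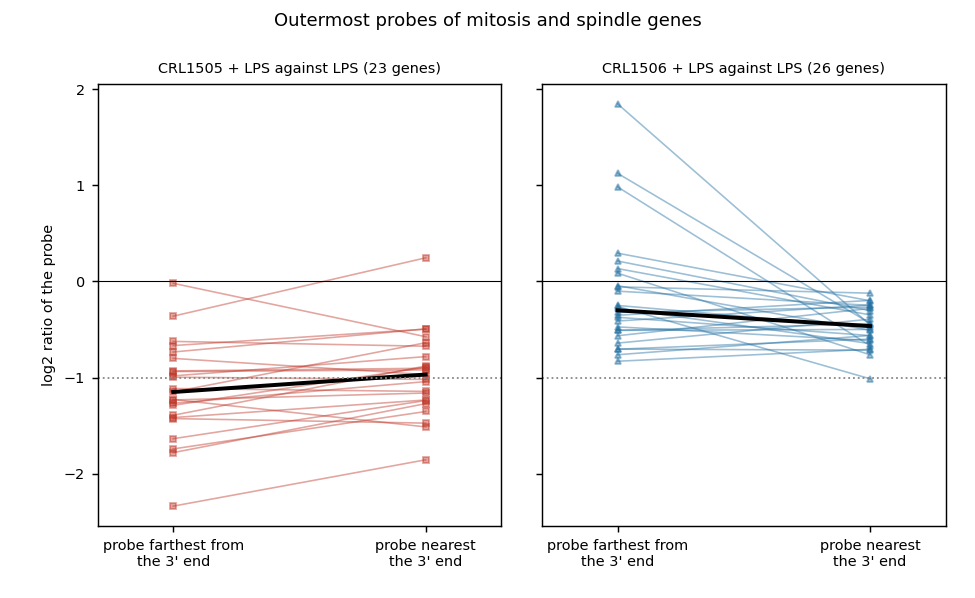
Log2 ratio to LPS (y axis) of the outermost probes of each member with at least 2 measured probes, joined by a line, for CRL1505 + LPS (23 genes, left) and CRL1506 + LPS (26 genes, right), with the medians in black. With CRL1505 + LPS the median is -1.15 far from and -0.97 near the 3′ end, and with CRL1506 + LPS it is -0.30 and -0.46.

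Other genes of the same machinery, in 6 lists of 114 genes, were counted by the same rule. With CRL1505 + LPS, 41 of 113 compared were at least 2-fold lower, 0 were higher and 102 were below 0, with a median of -0.68. Over all genes 8.24% were lower, 9.66% higher and 49.3% below 0 in that comparison. With CRL1506 + LPS, 1 was lower, 0 were higher and 102 were below 0, with a median of -0.35. Over all genes 3.44% were lower, 4.72% higher and 58.3% below 0, so the share called was no larger than among all genes. The 1 gene lower was *Fam83d*, a spindle protein, at -1.10.

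Lower calls with CRL1505 + LPS were most frequent among other spindle and cytokinesis genes, at 17 of 30, with a median of -1.13. The furthest from LPS there were *Kifc1*, a minus-end kinesin (-2.29, and -0.51 with CRL1506 + LPS), and *Depdc1b* (-2.24 and -0.46). Of the other mitotic kinases, phosphatases and CDK partners, 4 of 9 were lower, with a median of -0.95. *Cks2*, a CDK-binding adaptor, read -1.89 and -0.96, and *Ccnf*, cyclin F, -1.64 and -0.73. Of the other kinetochore genes, 8 of 27 were lower, with a median of -0.68, led by *Cenph* (-1.81 and -0.20) and by *Sgo1*, shugoshin, the protector of centromeric cohesin (-1.59 and -0.46).

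Structural and regulatory neighbours had medians nearer to 0 with CRL1505 + LPS, though single genes were far from LPS. With CRL1506 + LPS the condensin and cohesin list had -0.36, the APC/C list -0.16 and the DREAM and E2F list -0.38. The lists above had -0.45, -0.42 and -0.30 there, in the order given, so the contrast did not hold for every list. Among the other condensin and cohesin genes 5 of 14 were lower with CRL1505 + LPS, with a median of -0.37. *Cdca5*, sororin, read -1.92, and *Esco2*, a cohesin acetyltransferase not well above background with CRL1505 + LPS, had a log2 ratio of at most -1.92. Of the APC/C subunits and inhibitor 1 of 16 was lower, beside 8.24% of all genes, and the median was -0.27. That gene was *Fbxo5*, the APC/C inhibitor EMI1, at -2.77, and next came *Fzr1*, the APC/C activator CDH1, at -0.64. Of the DREAM, MuvB, B-Myb and E2F regulators 6 of 17 were lower, with a median of -0.38. The furthest were the atypical repressors *E2f7* (-2.80, and -0.70 with CRL1506 + LPS) and *E2f8* (-2.36 and -0.54).

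The medians of members with and without the promoter letters lay close to each other. With CRL1505 + LPS, the 29 members with CHR letters had a median of -0.92 and the 8 without had -0.85, and with CRL1506 + LPS these were -0.48 and -0.54. The 27 members with CCAAT letters had a median of -0.90 and the 10 without -1.09 with CRL1505 + LPS. Of the promoters printed above, *Kif23* and *Cdc20* both hold CHR and CCAAT letters, and their ratios to LPS were -2.34 and -0.49.

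Macrophage markers also differed between the arrays. *Fcgr1* and *Adgre1*, a high-affinity Fc receptor and an adhesion receptor that marks mouse macrophages, had log2 ratios to LPS of 2.40 and 2.27 with CRL1505 + LPS and 0.95 and 1.0 with CRL1506 + LPS. *Csf1r*, the receptor of the macrophage growth factor M-CSF, read -1.47 and -0.87. Of the 12 markers 3 were higher and 1 lower with CRL1505 + LPS, with a median of 0.24, beside 9.66% higher and 8.24% lower over all genes. With CRL1506 + LPS 1 was higher and 0 lower, with a median of -0.25, beside 4.72% and 3.44% of all genes. Their part in the lower signals of the mitosis and spindle genes was not tested.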

How the data were processed

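RNA of RAW 264.7 macrophages was labelled with Cy3 and hybridised to SurePrint G3 Mouse GE arrays, 1 per group. The authors deposited, for every spot, an intensity read by Feature Extraction, with background subtracted and without normalization between arrays. The grid placement entry of the file headers gives version 12.0.3.1, whereas the study's methods name an earlier version of Feature Extraction. A table of log2 values normalized between arrays was deposited too, in which each array has a median of 6.77. Its normalization setting is not given in the sources used here. The submitters' processing notes name limma. The log2 processed signal of a spot was taken relative to the 75th percentile over gene spots on that array. Spots marked as outliers were left out, repeated spots of a probe were averaged, and a gene was represented by its brightest probe. Genes not well above background on either array of a comparison were left out, and a side not well above background gave a bound. Medians over all genes leave such bounds out, while the counts and shares of all genes hold them. Of 36870 gene names, 24146 matched a RefSeq symbol of GRCm38.p6. The threshold of 2-fold is that of the study's methods, whose test needs replicates and was not run.

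The members and the lists were chosen with earlier results of these data known. All members are named under their role, with levels on each array for 12 chosen genes (*Cdk1*, *Ccnb1*, *Plk1*, *Aurkb*, *Birc5*, *Bub1*, *Cdc20*, *Ndc80*, *Kif11*, *Top2a*, *Mki67* and *Foxm1*), for members at least 2-fold from LPS and for the member furthest from LPS in each role. In other lists the 2 genes furthest from LPS are named, and 9 of the markers of other cells matched. Alternatives were other scalings, quantile and cyclic loess normalization, normexp with an offset of 50, the deposited log2 table, other filters on spots and probes, and thresholds of 1.5-fold and 4-fold. Those by probe position, by GC content over 12 bins and relative to the median of all genes were added after the data were seen, as were lists of DNA replication genes and CDK inhibitors. Python 3.11.15 (pandas 2.3.3, NumPy 2.4.6) and R 4.3.3 (limma 3.58.1) were used, and the procedure was tested on simulated data. The number of arrays limits the precision.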

Additional observations from a re-analysis of the deposited data

How the results depend on the processing

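No ratio of a member called at 2-fold and no median of the members changed sign under any alternative run, whereas the median of all genes changed sign with the scaling. It went from 0.05 to -0.45 for CRL1505 + LPS against LPS and from 0.10 to -0.28 for the strains with spike-in probes. Shares of all genes lower under the same setting stand in brackets. For CRL1505 + LPS against LPS, the 23 members at least 2-fold lower (8.24%) became 12 with arrays shifted by their medians (4.81%). They became 40 with arrays set by spike-in probes (19.6%), and the median of -0.99 became -0.70 and -1.5 in that order. At 1.5-fold 37 members were lower (17.1%) and at 4-fold 1 was (1.4%). For CRL1506 + LPS against LPS, the 1 member lower (3.44%) became 2 with the median shift (5.26%) and 15 at 1.5-fold (9.05%). It became 0 with the percentile taken over detected probes (2.99%), with quantile (4.77%) or cyclic loess normalization (4.12%) and with normexp (1.73%). It also became 0 in the deposited log2 table (1.73%), with a mean of the gene's probes (1.78%) and with the GC trend removed (3.44%). The same held relative to the median of all genes (3.03%) and at 4-fold (0.802%). With the probe farthest from the 3′ end 1 member, *Top2a*, was higher, beside 6.74% of all genes. For CRL1505 + LPS against CRL1506 + LPS, the 5 members lower (6.67%) became 1 with the median shift (2.56%). They became 12 with the percentile over detected probes (10.3%) and 19 with spike-in probes (14.6%). They became 9 with quantile (5.39%), with cyclic loess (5.27%) and relative to the median of all genes (8.16%). The number was 3 with normexp (2.77%), 8 in the deposited table (3.24%) and 13 with the probe farthest from the 3′ end (9.54%). It was 21 at 1.5-fold (16.1%) and 1 at 4-fold (0.932%). The median of -0.56 became -0.066 and -0.94 with the median shift and the spike-in probes. The cause was not tested. Of the ratios of single members under alternatives, 1823 moved by less and 247 by more than the spread between the probes of a gene, most of them under the median shift and the spike-in scaling.

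No paired analysis was possible because each group has 1 array. With 1 array a group, leaving out an array gives no value, and the t-test of the study's methods was not run. The dimmer CRL1505 + LPS array leaves fewer probes well above background, which limits other genes more than the members.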

Other observations

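Genes of DNA replication, a list of 30 chosen after the data were seen, were also lower with CRL1505 + LPS. At least 2-fold lower were 17, 0 were higher, and the median log2 ratio to LPS was -1.18. Over all genes 8.24% were lower and 9.66% higher with CRL1505 + LPS. The furthest were *Tk1*, thymidine kinase, at -3.04, and *Rrm2*, a subunit of ribonucleotide reductase, at -2.70. With CRL1506 + LPS 0 of the 30 were at least 2-fold lower or higher, beside 3.44% lower and 4.72% higher over all genes. The median was -0.28, and *Tk1* and *Rrm2* read -0.58 and -0.35. *Tyms*, thymidylate synthase, went the other way, at 0.71 and 0.22.

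Inhibitors of CDKs and antiproliferative genes, 14 chosen after the data were seen, had medians of opposite sign in the comparisons with LPS under the 75th percentile scaling. This list was not run under the other scalings, so whether the signs hold there was not tested. With spike-in probes the median of all genes moved from 0.05 to -0.45 with CRL1505 + LPS. Of the 13 compared, 1 was at least 2-fold lower with CRL1505 + LPS and 0 were higher, with 5 below 0 and a median of 0.28. Over all genes 8.24% were lower, 9.66% higher and 49.3% below 0. With CRL1506 + LPS 1 was lower and 0 were higher, with 11 below 0 and a median of -0.53, beside 3.44%, 4.72% and 58.3% of all genes. In CRL1505 + LPS against CRL1506 + LPS, 10 of 12 were above 0, 4 were at least 2-fold higher and 1 was lower, with a median of 0.50. There 8.81% of all genes were higher and 6.67% lower. The gene lower was *Cdkn2c*, the CDK inhibitor p18, at -2.85 with CRL1505 + LPS and -1.29 with CRL1506 + LPS. *Cdkn1a*, which encodes p21, read 0.58 and -0.53, and *Ccng2*, an atypical cyclin of resting cells, 0.81 and -0.97.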
